A study of Homo sapiens with 24 samples.

Results

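Small RNA libraries of HEK293 cells that overexpressed lamin B1 were compared with those of cells that overexpressed lamin A. The comparison used 6 samples of the 24 in the study, chosen by their labels as the 3 small RNA libraries of the LMNB1 group and the 3 of the LMNA group. HEK293 is an established human embryonic kidney cell line, and its genotype is given as Wild Type in both groups, so the groups differ by the overexpressed lamin. No untreated cells were among the samples used here, and the labels do not say which promoter or vector drove the lamins, or whether the replicates came from separate cultures. If they did not, the p-values measure only the spread between these libraries, which may be technical. RNA was enriched for small species before sequencing. The remaining small RNA libraries, 3 with enhanced green fluorescent protein (GFP) and 3 with lamin B2 (LMNB2), did not enter the contrast. They were part of the fit of 12 libraries, where they entered the filter on low counts, the scaling and the estimate of the spread, and their levels are given as a reference. The batch label was the same for all small RNA libraries.

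Lamins are intermediate filament proteins that form a meshwork under the inner nuclear membrane. A-type lamins, from LMNA, are found at the envelope and in the nuclear interior, while B-type lamins stay attached to the membrane by a farnesyl group. The RNA measured here is made by several polymerases. RNA polymerase II makes microRNA precursors, most spliceosomal small nuclear RNAs and the host genes of most small nucleolar RNAs (snoRNAs), polymerase I makes the large ribosomal RNA precursor, and polymerase III makes tRNA, 5S ribosomal RNA, U6, 7SK, Y and vault RNA. Box C/D snoRNAs guide 2′-O-methylation and box H/ACA snoRNAs guide pseudouridylation, mainly of ribosomal RNA. Most human snoRNAs are cut from introns of a host gene, so their level depends on the host transcript and on the proteins that protect the mature RNA.

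Several snoRNA host genes start transcription at a C inside a run of pyrimidines, the signature of the 5′ terminal oligopyrimidine genes that encode much of the translation machinery. The promoters of 4 hosts are shown, each of which holds a C/D snoRNA that was lower in all 3 LMNB1 libraries than in all 3 LMNA libraries. Each line holds 50 bases before and 20 bases from the RefSeq start (GRCh38.p14), 5′ to 3′ on the strand of the gene, and capitals mark the unbroken run of C and T that begins at the start. They are the promoters of SNHG19 (chr16:2155339-2155408, minus strand, host of SNORD60), RACK1 (chr5:181243887-181243956, minus strand, host of SNORD96A), RPL13 (chr16:89560632-89560701, plus strand, host of SNORD68) and CHD8 (chr14:21437256-21437325, minus strand, host of SNORD8).
SNHG19: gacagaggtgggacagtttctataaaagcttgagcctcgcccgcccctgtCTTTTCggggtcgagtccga
RACK1: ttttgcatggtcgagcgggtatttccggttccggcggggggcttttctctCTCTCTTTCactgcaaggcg
RPL13: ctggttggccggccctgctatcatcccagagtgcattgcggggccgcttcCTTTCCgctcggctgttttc
CHD8: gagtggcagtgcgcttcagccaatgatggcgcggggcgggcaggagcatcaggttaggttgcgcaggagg
The run is present at the starts shown for SNHG19, RACK1 and RPL13 and absent at that of CHD8. RefSeq gives 3 starts for RPL13, and the other two, at windows chr16:89560607-89560676 and chr16:89560661-89560730, do not have a run of that length. A C at the start followed by at least 4 pyrimidines, read on the strand of the gene, was present at 27 of 118 RefSeq promoters of genes that hold a tested C/D snoRNA (22.9%), against 1429 of all 35116 promoters (4.07%). Among the genes that hold a C/D snoRNA with groups that did not overlap, lower in LMNB1, it was present at 19 of 62 promoters (30.6%). The listed starts of SNHG1, TNPO2, PPAN and TSR1, hosts of other lower C/D snoRNAs described below, lacked it. The 4 promoters shown are thus not a representative sample of the hosts. Of 110 genes that hold any tested C/D snoRNA, 87 had a listed promoter, and the 62 promoters belong to 49 genes. The match is a property of the host gene starts and was not tested against the fold changes.

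The 3 LMNA libraries held 159120880, 151919382 and 195074742 counts and the 3 LMNB1 libraries 156894635, 153747548 and 167068016. Counts were given for 175946 annotated intervals, 155223 of them long non-coding RNA (lncRNA) intervals, many of which overlap. Overlapping intervals and near-identical gene copies share reads, so counts of features are not counts of independent RNAs. Levels are given as CPM, the counts scaled to a common library size after TMM adjustment. Intervals over LMNA held too few small RNA reads to check the LMNA label. In the accessibility assay of cells from the same conditions, the window on lnc-SEMA4A-1 inside LMNA reached 4350, 5332 and 3743 CPM in the LMNA libraries against 13.3, 16.5 and 7.07 CPM in the LMNB1 libraries. Of the markers of other cell types, microRNAs of hepatocytes, muscle, blood, fibroblasts, neurons and pluripotent cells had summed levels below 0.04 CPM in each of the 6 libraries. The 12 intervals of microRNAs that HEK293 is known to express summed to 121 to 208 CPM in LMNA and 163 to 186 CPM in LMNB1. MIR182 and MIR183 each enter that sum under near-identical intervals, and MIR16-1 was at 0.661 to 1.08 CPM. These marker levels were scaled by total counts without TMM.

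Which small RNAs differed between the lamins was asked first over all features. In the fit of all 12 small RNA libraries, 4 of 33893 tested intervals passed an adjusted p of 0.05 in edgeR's quasi-likelihood test (0.0118%), all 4 higher in LMNB1. Of these, 3 lie at the overexpressed LMNB1 gene itself and 1 at TFAP2A, which encodes a transcription factor of early development. No interval was called lower. At an unadjusted p under 0.05 there were 1947 intervals (5.74%), 846 higher (2.5%) and 1101 lower (3.25%) in LMNB1.

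LMNB1 was the largest difference and checks the label of its group. The LMNB1-DT interval at chr5:126777177-126778255 had 0.0684, 0.0621 and 0.0526 CPM in the LMNA libraries and 17.8, 19.3 and 17.6 CPM in the LMNB1 libraries. The log2 fold change was 7.95 ± 0.27 (SE, 3 libraries per group, adjusted p = 9.15e-12, edgeR). LMNB1-DT is annotated as a divergent transcript of LMNB1, but this interval lies inside the RefSeq LMNB1 gene (chr5:126776623-126837020) and outside RefSeq LMNB1-DT (chr5:126751963-126776486). Its reads cannot be assigned to the divergent transcript, because the use of strand in counting is not given in the sources used here. The overlapping, longer interval at chr5:126776224-126778255 had a log2 fold change of 7.27 ± 0.29 (adjusted p = 4.79e-11).

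The third interval at this locus carries the label of a signal recognition particle RNA, spans chr5:126627727-126935934 and so contains all of LMNB1. It had 1.21, 1.26 and 1.11 CPM in LMNA and 123, 135 and 118 CPM in LMNB1, a log2 fold change of 6.70 ± 0.25 (adjusted p = 2.52e-11, edgeR). The 3 called intervals thus share reads and amount to 1 locus. The tested LMNB1-DT intervals that lie mostly upstream of LMNB1 did not pass. The one at chr5:126751938-126776694 had 0.106, 0.0967 and 0.0877 CPM in LMNA and 0.103, 0.0673 and 0.0696 CPM in LMNB1 (log2 fold change -0.24 ± 0.27, adjusted p = 0.932). Of the intervals over LMNA, lnc-MEX3A-1 was the one tested, with a log2 fold change of 0.30 ± 0.43 (adjusted p = 0.954).

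lnc-TFAP2A-3, the remaining call, lies at chr6:10404643-10419684 and overlaps TFAP2A (chr6:10396677-10419659) and its antisense gene TFAP2A-AS1. It had 0.243, 0.311 and 0.333 CPM in the LMNA libraries and 1.11, 1.14 and 0.748 CPM in the LMNB1 libraries, from 39, 45 and 57 counts against 184, 186 and 129. The groups did not overlap, and the log2 fold change was 1.71 ± 0.20 (adjusted p = 0.00117, edgeR). With scaling by total counts only, the adjusted p was 0.0643. LMNB2 libraries had 0.199 to 0.256 CPM and GFP libraries 0.163 to 0.259 CPM, so among the 12 libraries the LMNB1 libraries alone were high.

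Nested intervals placed the excess at the end of this feature. The interval of lnc-TFAP2A-3 at chr6:10418164-10419648 held 3, 12 and 20 counts in LMNA and 144, 155 and 105 in LMNB1, with a log2 fold change of 3.25 ± 0.47 that did not pass (adjusted p = 0.216). The interval at chr6:10404596-10417232 held 36, 35 and 35 counts against 40, 31 and 27 (log2 fold change -0.18 ± 0.21, adjusted p = 0.936). The short interval lies inside TFAP2A near the 5′ end of that gene, which is read on the minus strand. The tested TFAP2A-AS1 intervals did not pass either, with log2 fold changes of -0.22 and -0.47.

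**Figure D1:**
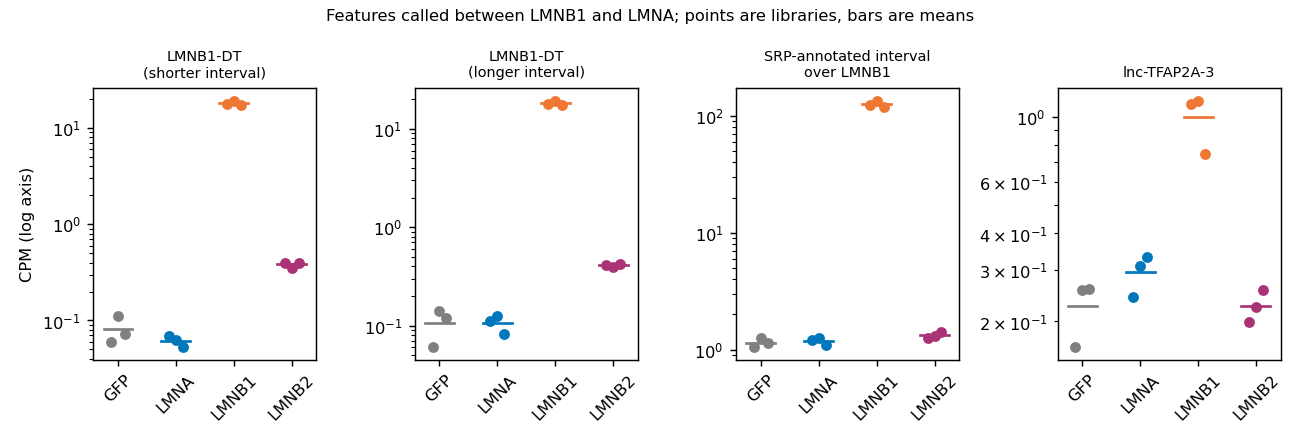
CPM (log axis) of the 4 called intervals in each of the 12 small RNA libraries, with points for libraries and bars for group means. The LMNB1 libraries sit at 17.8 to 19.3 CPM in the shorter LMNB1-DT interval and at 0.748 to 1.14 CPM in lnc-TFAP2A-3, above the other 9 libraries in every panel.

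Outside these loci, the fits that estimated the spread without the GFP libraries gave more calls, nearly all of them lower in LMNB1. The biological coefficient of variation was 0.227 over all 12 libraries, 0.158 over the 9 lamin libraries and 0.175 over the 6 libraries compared. With the 9 lamin libraries, 262 of 32275 tested intervals were called (0.812%), 239 lower in LMNB1 (0.741%) and 23 higher (0.0713%). With the 6 libraries, 103 of 28761 were called (0.358%), 91 lower (0.316%) and 12 higher (0.0417%). Of the 103 intervals called with 6 libraries, 102 were among the 262 called with 9 (99% of the smaller list and 38.9% of the larger). Both lists contain the 4 calls of the 12-library fit. The 239 lower intervals fall into 99 loci that do not overlap each other. Of the 239, 141 are lncRNA intervals, and 139 of the 239 are or overlap a called snoRNA. The 139 include the called snoRNAs themselves and 88 lncRNA intervals. The same share over all tested intervals is not given here.

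**Figure D2:**
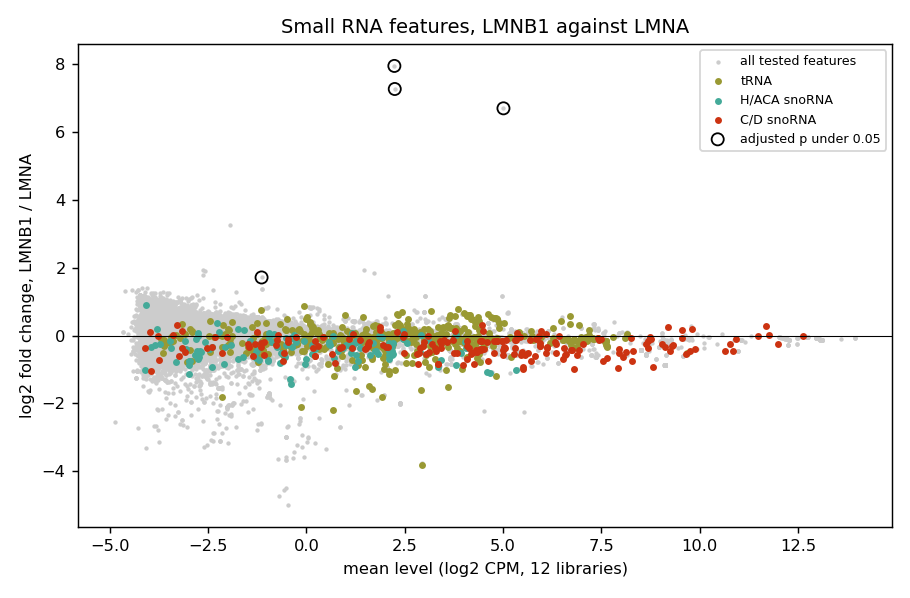
Log2 fold change of LMNB1 over LMNA against the mean level (log2 CPM, 12 libraries) for 33893 tested intervals, with C/D snoRNAs, H/ACA snoRNAs and tRNAs coloured and the 4 calls circled. The C/D snoRNAs lie mostly below 0 at all levels, and the 3 circled points above 6 are the intervals at LMNB1.

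Most C/D snoRNAs lay lower in the LMNB1 libraries, by a modest amount. Of 384 intervals in the table, 195 were tested (185 names), and the log2 fold change was below 0 for 172 of them, against 16601 of all 33893 features (49%). Their median log2 fold change was -0.33, against 0.01 for all features. In 101 of the 195, all 3 LMNB1 libraries were below all 3 LMNA libraries, and in 2 all were above; the share over all features was 7.51% lower and 6.07% higher. The share over the tested features other than lncRNA intervals was 16.6% lower and 4.45% higher. No C/D snoRNA was called in the 12-library fit, where the smallest adjusted p was 0.832 (edgeR), and 31 were lower at an unadjusted p under 0.05. With the 9 lamin libraries 38 of 192 were called lower, and with the 6 libraries 21 of 190, none higher in either. Over all features, 3.25% were lower at an unadjusted p under 0.05 with 12 libraries. The shares of all features called lower were 0.741% with 9 libraries and 0.316% with 6.

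SNORD68, SNORD41 and SNORD26 had the smallest adjusted p among snoRNAs in the 9-library fit; these and the SNORD135, SNORD105B, SNORD25 and SNORD60 described next were chosen after their values were seen. SNORD68 (chr16:89561409-89561542, inside RPL13, a large-subunit ribosomal protein gene) had 126, 164 and 162 CPM in LMNA and 84.8, 65.7 and 77.5 CPM in LMNB1. SNORD41 (chr19:12706424-12706543, inside the import receptor gene TNPO2) had 48.7, 58.7 and 60 CPM against 28.5, 26.8 and 33.3 CPM. SNORD26 (chr11:62855267-62855391, inside SNHG1, a lncRNA gene that holds 8 tested C/D snoRNAs) had 349, 371 and 377 CPM against 224, 200 and 233 CPM. The groups did not overlap in any of the 3, and the LMNA libraries were close to each other. In the 9-library fit the log2 fold changes were -0.99 ± 0.12, -0.92 ± 0.12 and -0.74 ± 0.10, with adjusted p of 0.000141, 0.000147 and 0.000227 (edgeR).

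GFP libraries differed widely for the same snoRNAs, with replicate 1 above the LMNA libraries and replicates 2 and 3 near the LMNB1 libraries. SNORD68 had 267, 72 and 80.1 CPM in GFP, SNORD41 had 120, 32.9 and 33.4 CPM, and SNORD26 had 722, 217 and 197 CPM. These GFP values enter the spread of the 12-library fit, and their part in its lower number of calls was not tested beyond leaving libraries out. In bulk RNA, fewer cells with a given RNA and less of that RNA per cell cannot be told apart.

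SNORD135, a second snoRNA inside TNPO2, fell with a log2 fold change of -0.86 ± 0.12 (adjusted p = 0.000301 in the 9-library fit, edgeR). It had 19.3, 17.6 and 20.7 CPM in LMNA and 10.2, 11.2 and 10.3 CPM in LMNB1. SNORD105B, inside PPAN, a ribosome biogenesis gene, had 67.3, 67.9 and 65.4 CPM against 41.9, 38 and 39.3 CPM. SNORD25, inside SNHG1, had 263, 240 and 273 CPM against 158, 153 and 177 CPM. SNORD60, the snoRNA of SNHG19 whose promoter is shown above, had 110, 114 and 114 CPM against 72.4, 67 and 71.2 CPM. In all 4 the LMNB1 libraries lay below every LMNA library.

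The 3 lower C/D snoRNAs that the naming rule took from the 12-library fit were SNORD96A, SNORD8 and SNORD91A. SNORD96A (chr5:181241793-181241914), inside RACK1, the gene of a scaffold protein of the small ribosomal subunit, had 31.5, 19.7 and 26.5 CPM in LMNA and 13.9, 14.6 and 15.3 CPM in LMNB1. Its log2 fold change was -0.83 ± 0.24 (adjusted p = 0.832 with 12 libraries, 0.00315 with 9 and 0.0181 with 6, edgeR). SNORD8 (chr14:21397268-21397426), inside the chromatin remodeller gene CHD8, had 2.83, 1.88 and 2 CPM against 1.19, 1.35 and 1.25 CPM. SNORD91A (chr17:2330254-2330395), inside the ribosome maturation gene TSR1, had 13.5, 13.1 and 13.3 CPM against 7.89, 6.55 and 7.86 CPM. The groups did not overlap in any of the 3, and LMNB1 means were 43.6%, 43.6% and 44.2% below the LMNA means.

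A pair of C/D snoRNAs went the other way without overlap, at high levels. SNORD59A, inside the ATP synthase gene ATP5F1B, had 464, 510 and 528 CPM in LMNA and 539, 637 and 601 CPM in LMNB1 (log2 fold change 0.24 ± 0.30, adjusted p = 0.944, edgeR). SNORD82, inside the nucleolin gene NCL, had 634, 705 and 707 CPM against 716, 801 and 765 CPM (0.16 ± 0.30, adjusted p = 0.975). SNORD44, inside GAS5 and among the most abundant snoRNAs here, had 5331 to 6683 CPM in LMNA and 5769 to 6459 CPM in LMNB1, and the groups overlapped. Summed over the class, C/D intervals took 4.43% to 4.62% of all counts in LMNA and 4.40% to 4.53% in LMNB1, so the share of counts did not separate the groups while the median member did.

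C/D medians were below 0 for each host type and each level of abundance. The 142 tested intervals inside protein-coding genes had a median log2 fold change of -0.33, with 69 lower and 2 higher without overlap, where the share over all features was 7.51% lower and 6.07% higher. The 37 inside lncRNA genes only had a median of -0.41, with 21 lower and 0 higher. The 16 inside neither kind of gene had a median of -0.17, with 11 lower and 0 higher. Members inside SNHG1 (8 tested) and GAS5 (10 tested), a pair of lncRNA genes known mainly as snoRNA hosts, had medians of -0.41 and -0.36. Split into 3 parts of equal size by mean level, the medians were -0.31, -0.37 and -0.31 from lowest to highest. The differences between these subsets were not tested. The imprinted snoRNA clusters of chromosomes 14 and 15 had 140 intervals in the table, and 0 passed the filter on low counts.

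Whole host intervals contain the snoRNA reads. GAS5 had 7911, 9613 and 9561 CPM in LMNA against 8523, 7684 and 8551 CPM in LMNB1, with overlapping groups. SNHG1 had 5009, 5011 and 5539 CPM against 4589.9, 4660.2 and 4918 CPM (log2 fold change -0.14 ± 0.32, adjusted p = 0.989, edgeR). Of 356 tested lncRNA intervals at snoRNA host genes, 339 had a log2 fold change below 0, with a median of -0.20. In 177 the groups did not overlap, lower in LMNB1, and in 1 they did not overlap, higher (49.7% and 0.281%, against 7.51% and 6.07% over all features). With scaling by total counts these were 55 lower (15.4%) and 8 higher (2.25%), against 3.14% and 14.1%. Many of these intervals are alternative models of the same gene.

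U3, U8 and U13, C/D snoRNAs that act in the maturation of ribosomal RNA, had 11 tested intervals, all 11 below 0, with a median log2 fold change of -0.16. In 10 of the 11 the groups did not overlap, lower in LMNB1 (90.9%, against 7.51% over all features). With scaling by total counts this held in 1 of the 11 (9.09%, against 3.14% over all features). SNORD118 (U8), for example, had 499, 507 and 523 CPM in LMNA and 481, 490 and 446 CPM in LMNB1 (log2 fold change -0.11 ± 0.22, adjusted p = 0.982, edgeR). Polymerase I ribosomal RNA intervals, which include the mature ribosomal RNAs, differed little. Reads of the precursor were not separated from those of the mature RNAs in these intervals. The 15 tested polymerase I intervals had a median of -0.07, and their groups overlapped in all 15.

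H/ACA snoRNAs had a median log2 fold change of -0.36 over 131 tested intervals, 116 of them below 0. The groups did not overlap in 50 (38.2%), all lower in LMNB1. The share was 7.51% over all features and 16.6% over those other than lncRNA intervals. These snoRNAs were recovered at low levels, with a median of 0.962 CPM against 21.4 CPM for C/D snoRNAs. The counts are per interval and not adjusted for length. In the 9-library fit 5 of 129 were called lower (SNORA54, SNORA48, SNORA3A, SNORA8 and SNORA50A) and in the 6-library fit 0 of 128. Over all features 0.741% and 0.316% were called lower in these fits. SNORA54 (chr11:2963746-2963918, inside NAP1L4, a histone chaperone gene) had 0.884, 0.566 and 0.719 CPM in LMNA and 0.399, 0.41 and 0.47 CPM in LMNB1, a log2 fold change of -0.75 ± 0.18 (adjusted p = 0.832 with 12 libraries and 0.0221 with 9, edgeR). SNORA3A, inside the ribosomal protein gene RPL27A, had 19.9, 17.4 and 18.1 CPM against 12, 14.8 and 12.2 CPM.

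The small Cajal body RNAs (scaRNAs), which guide modification of spliceosomal RNAs, had a median of -0.18 over 27 tested intervals, with 6 lower (22.2%) and 0 higher without overlap, against 7.51% and 6.07% over all features. Over the tested features other than lncRNA intervals the shares were 16.6% lower and 4.45% higher. With scaling by total counts 1 scaRNA was lower (3.7%) and 3 were higher (11.1%), against 3.14% and 14.1% over all features. SCARNA23 (chrX:24744416-24744595, inside the DNA polymerase gene POLA1) had 1.47, 1.03 and 1.08 CPM in LMNA and 0.58, 0.826 and 0.603 CPM in LMNB1. Its log2 fold change was -0.82 ± 0.20 (adjusted p = 0.832 with 12 libraries and 0.0102 with 9, edgeR). The spliceosomal RNAs they act on had a median of -0.14 over 37 intervals, with 2 lower (5.41%, under the 7.51% of all features) and 0 higher without overlap. RNU4-1, a U4 gene, had 5.4, 3.83 and 4.34 CPM in LMNA and 3.6, 3.49 and 3.67 CPM in LMNB1.

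**Figure D3:**
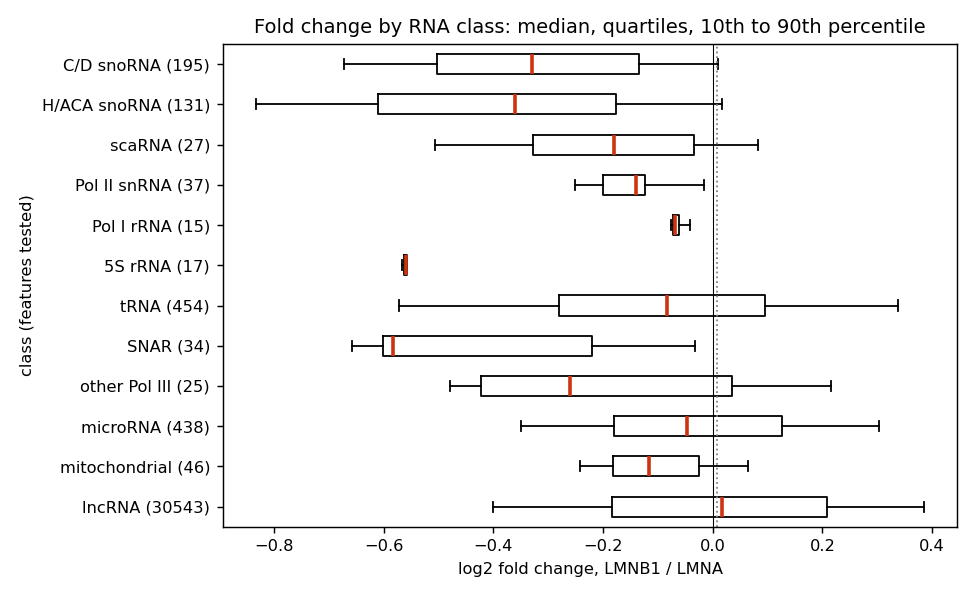
Log2 fold change of LMNB1 over LMNA by RNA class, with the median (red), quartiles (box) and 10th to 90th percentile (whiskers), the number of tested intervals in brackets, and the median of all features as a dotted line. C/D snoRNAs, H/ACA snoRNAs, 5S ribosomal RNA and SNAR have medians of -0.33, -0.36, -0.56 and -0.58, with overlapping groups in every SNAR interval, while lncRNAs, microRNAs and tRNAs lie nearer to 0.

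Part of these differences depends on how the libraries are scaled. Scaling by total counts moved the median of all features from 0.01 to 0.15. The C/D median became -0.19 and the H/ACA median -0.22. With the median of all features subtracted they were -0.33 and -0.36. That subtraction centres the features much as the main scaling does, so the match with the main scaling is not a check on it. The counts of members without overlap fell: 63 C/D snoRNAs were lower and 18 higher (background 3.14% and 14.1%), and 19 H/ACA snoRNAs were lower and 5 higher. With any single library of the 6 left out, 109 to 122 C/D and 50 to 81 H/ACA snoRNAs were lower without overlap, where the background was 11.6% to 13.8%. These counts cannot fall when a library is dropped, because groups that do not overlap stay apart with fewer libraries. They are therefore not a check on whether the difference rests on a single library.

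The class level of each library, the median over members of log2 CPM relative to the mean of the 6 libraries, was 0.18, 0.08 and 0.15 for C/D snoRNAs in LMNA and -0.17, -0.12 and -0.13 in LMNB1. The LMNB2 libraries lay at -0.18 to -0.11, and the GFP libraries at 0.36, -0.26 and -0.30, on both sides of the lamin libraries. For H/ACA snoRNAs the LMNA libraries were at 0.34, 0.03 and 0.06 and the LMNB1 libraries at -0.24, -0.04 and -0.21. LMNA replicate 1 was the highest of the 6 in both snoRNA classes. The spread within LMNA was larger for H/ACA (SD 0.17) than for C/D (SD 0.05).

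**Figure D4:**
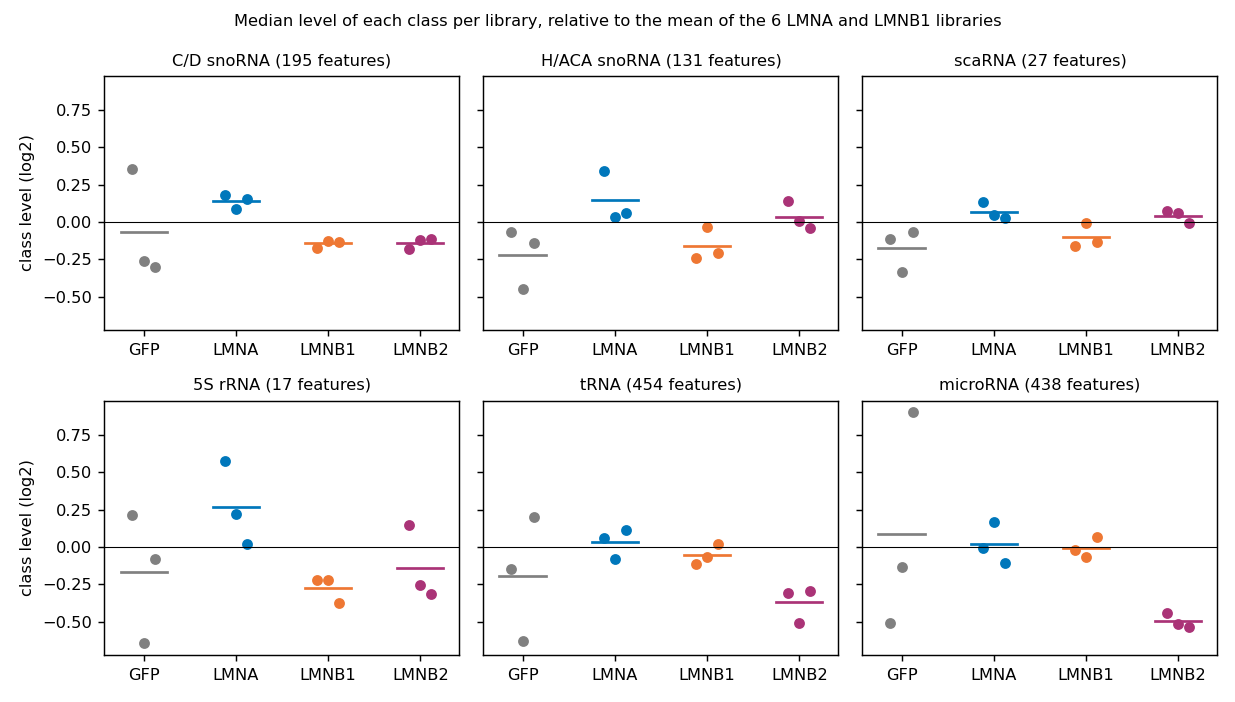
Class level per library (median over members of log2 CPM relative to the 6 LMNA and LMNB1 libraries) for 6 RNA classes, with points for libraries and bars for group means. The 3 LMNA libraries lie above the 3 LMNB1 libraries for C/D snoRNAs (0.08 to 0.18 against -0.17 to -0.12), while GFP replicate 1 at 0.36 and the other GFP libraries lie outside both groups.

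Among polymerase III products, 5S ribosomal RNA, SNAR and the class of other polymerase III genes had medians below 0, and tRNA medians lay on both sides of 0 by isotype. All 17 tested 5S intervals were near-copies that share reads, and they had a median log2 fold change of -0.56. RNA5S9 had 258, 198 and 178 CPM in LMNA and 147, 155 and 126 CPM in LMNB1 (log2 fold change -0.57 ± 0.26, adjusted p = 0.832 with 12 libraries and 0.0594 with 9, edgeR). The groups did not overlap in any of the 17, but with scaling by total counts they overlapped in all 17. The SNAR-A family, primate-specific non-coding RNAs, had 25 tested intervals, all 25 below 0 with a median of -0.59. Over all 34 tested SNAR intervals, 0 separated the groups, and the median of -0.58 became -1.05 without LMNB1 replicate 2 and -0.37 without LMNB1 replicate 1. SNAR-A1 had 119, 150 and 76.2 CPM in LMNA and 47.1, 119 and 52.8 CPM in LMNB1, so its groups overlapped.

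No single polymerase III gene of the list passed the test in the 12-library fit. The class of other polymerase III genes that holds them had 25 tested intervals, with a median log2 fold change of -0.26. Without overlap, 11 were lower (44%) and 1 was higher (4%), against 7.51% and 6.07% over all features. Over the tested features other than lncRNA intervals the shares were 16.6% and 4.45%. The class median was below 0 in all 24 settings, nearest to 0 with total counts (-0.12). RN7SK, the RNA that holds the elongation factor P-TEFb inactive, had 98.2, 127 and 123 CPM in LMNA and 142, 134 and 149 CPM in LMNB1, higher without overlap (log2 fold change 0.28 ± 0.25, adjusted p = 0.913, edgeR). RMRP, the RNA of the mitochondrial RNA processing ribonuclease, had 48.4, 38.6 and 36.1 CPM against 33.8, 31.8 and 34.7 CPM, lower without overlap (-0.29 ± 0.24, adjusted p = 0.913). RPPH1, the RNA of ribonuclease P, had 32.4, 28.3 and 28.8 CPM against 27.8, 27.1 and 24.1 CPM, also lower without overlap (-0.18 ± 0.20, adjusted p = 0.929). The Y RNA gene RNY4 had 838 to 1061 CPM in LMNA and 929 to 1051 CPM in LMNB1, and the vault RNA gene VTRNA1-1 had 48.6 to 63.4 and 49 to 57.8 CPM, with overlap in both.

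Nuclear tRNA genes had a median log2 fold change of -0.08 over 454 tested intervals. The groups did not overlap in 76 lower (16.7%) and 6 higher (1.32%), against 7.51% and 6.07% over all features. Over the tested features other than lncRNA intervals the shares were 16.6% lower and 4.45% higher. The lower share of tRNA genes was thus near that background. With scaling by total counts the balance turned, with 22 lower (4.85%) and 57 higher (12.6%) against 3.14% and 14.1% over all features. With 9 lamin libraries 11 of 452 were called lower, and with 6 libraries 7 of 452, none higher in either. Over all features 0.741% and 0.316% were called lower in these fits. Isotypes differed in direction. Of 34 tested valine genes 28 were above 0 (median 0.49), and of 23 glutamine genes 22 were (median 0.36), while 35 of 43 alanine genes, 23 of 29 lysine genes and 11 of 11 phenylalanine genes were below 0 (medians -0.40, -0.33 and -0.26). Copies of an isotype share reads, and libraries of a group differed. The valine level was 0.10, -0.60 and -0.22 in LMNA and 0.41, -0.09 and 0.44 in LMNB1, so the groups overlapped.

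Individual tRNA genes could depart from their isotype. The tRNA-Val-CAC-8-1 copies, at chr1:143800016-143800136 and chr1:145161083-145161203, were chosen after their values were seen. The first had 20.8, 16 and 16.1 CPM in LMNA and 7.48, 10.2 and 8.34 CPM in LMNB1, and the second 26.8, 21.4 and 21.7 CPM against 10.5, 14.2 and 10.5 CPM. Both were below without overlap although most valine genes were above 0, with log2 fold changes of -1.02 ± 0.14 and -0.99 ± 0.14 and an adjusted p of 0.000353 for each in the 9-library fit (edgeR). tRNA-Lys-TTT-1-2, the lower tRNA named by the rule, had 54.4, 28.6 and 67.8 CPM against 20.8, 23.4 and 22.2 CPM (-1.18 ± 0.30, adjusted p = 0.832 with 12 libraries).

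**Figure D5:**
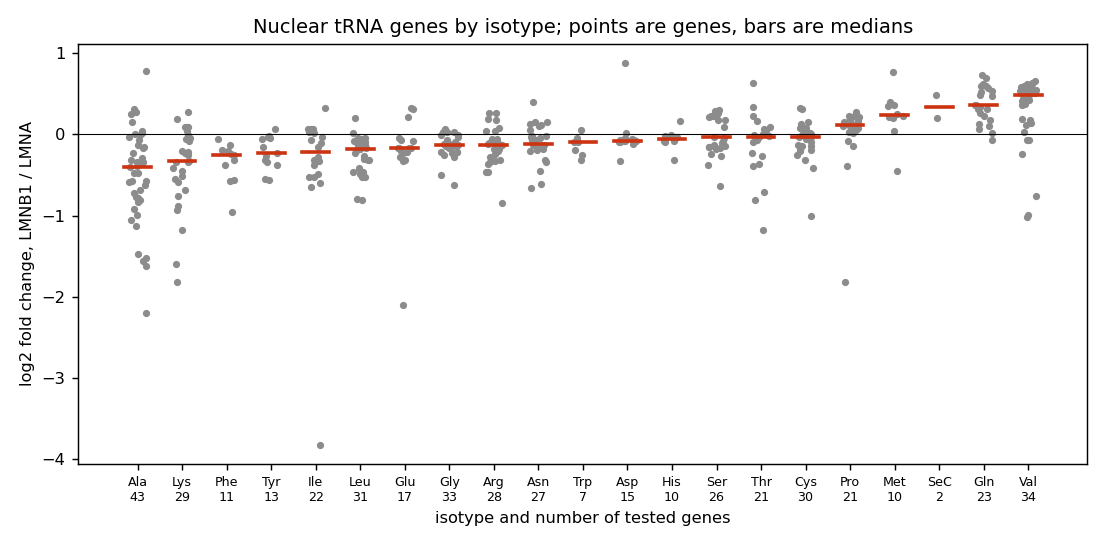
Log2 fold change of LMNB1 over LMNA for each tested nuclear tRNA gene by isotype, with red bars at the isotype medians and the number of tested genes under each name. Medians run from -0.40 for alanine to 0.49 for valine, and the lowest point, an isoleucine gene at -3.83, is carried by 1 of the LMNA libraries.

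MicroRNAs, which pair through the seed at bases 2 to 8 with target messages, showed little difference as a class. The mature sequences of those described are given from RefSeq (GRCh38.p14) with the seed in capitals, because members with a shared seed can bind the same sites and the counts do not separate the arms of a precursor.
hsa-miR-20a-5p: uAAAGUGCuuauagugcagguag
hsa-miR-92a-3p: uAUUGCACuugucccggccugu
hsa-miR-25-3p: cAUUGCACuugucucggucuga
hsa-let-7a-5p: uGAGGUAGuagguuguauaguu
hsa-let-7c-5p: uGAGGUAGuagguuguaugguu
hsa-miR-4521: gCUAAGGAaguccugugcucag
hsa-miR-1306-3p: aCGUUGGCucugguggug
Of these, miR-92a and miR-25 share a seed, and let-7a and let-7c share another. Sequences were found for 11 of the 12 microRNA genes named by the rule.

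The 438 tested microRNA intervals had a median log2 fold change of -0.05, with 31 lower (7.08%) and 15 higher (3.42%) without overlap, against 7.51% and 6.07% over all features. With scaling by total counts 6 were lower and 41 higher (9.36%), against 3.14% and 14.1%. They took 0.101% to 0.142% of all counts in LMNA and 0.127% to 0.130% in LMNB1. MIR20A, a member of the MIR17HG cluster that promotes cell proliferation, had 2.49, 2.53 and 2.35 CPM in LMNA and 1.68, 1.67 and 1.65 CPM in LMNB1 (log2 fold change -0.56 ± 0.25, adjusted p = 0.832 with 12 libraries and 0.0302 with 9, edgeR). Its interval begins inside the mature 5p arm, so part of that arm lies outside it. MIR92A1, from the same cluster, had 16.1, 39.5 and 25.4 CPM in LMNA and 30.1, 27.7 and 30.9 CPM in LMNB1, with overlap. MIR25, which shares the seed of miR-92a, had 12.5, 19.7 and 11.4 CPM against 15, 13.8 and 16.2 CPM, also with overlap.

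The 15 tested members of the miR-17-92, miR-106b-25 and miR-106a-363 clusters had a median of -0.02, and the 20 let-7 intervals, a family that restrains growth genes, a median of 0.00. MIRLET7C had 7.94, 9.4 and 6.64 CPM in LMNA and 7.72, 7.59 and 7.38 CPM in LMNB1. MIRLET7A1 had 4.62, 7.77 and 4.22 CPM against 6.12, 5.49 and 5.3 CPM. In both the LMNB1 values lay inside the LMNA range.

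MIR4521 was lower without overlap, with 7.61, 5.47 and 5.36 CPM in LMNA and 3, 4.58 and 3.46 CPM in LMNB1 (log2 fold change -0.74 ± 0.31, adjusted p = 0.832 with 12 libraries and 0.118 with 9, edgeR). MIR1306, inside DGCR8, the gene of a subunit of the microRNA-processing complex, was higher, with 0.591, 0.642 and 0.731 CPM against 0.803, 0.844 and 0.835 CPM (0.33 ± 0.19, adjusted p = 0.859 with 12 libraries). MIR3687-1 lies in the 5′ part of the ribosomal RNA precursor unit on chromosome 21 and had 21.2, 20 and 28.4 CPM in LMNA and 36, 40.4 and 33.5 CPM in LMNB1. Its log2 fold change was 0.66 ± 0.25 (adjusted p = 0.832 with 12 libraries and 0.0114 with 9), and near-copies of it at other ribosomal units share its reads. GFP replicates 1 and 2 were at 37.7 and 37.4 CPM and replicate 3 at 20.9 CPM, so the GFP libraries covered the range of both lamin groups.

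Mitochondrial RNAs had a median log2 fold change of -0.12 over 46 tested intervals, with 15 lower (32.6%) and 1 higher (2.17%) without overlap, against 7.51% and 6.07% over all features. Over the tested features other than lncRNA intervals the shares were 16.6% lower and 4.45% higher. With scaling by total counts 1 mitochondrial interval was lower (2.17%) and 2 were higher (4.35%), against 3.14% and 14.1% over all features. MT-TA, the mitochondrial alanine tRNA gene, was the 1 higher with the main scaling. It had 6.91, 6.46 and 6.75 CPM in LMNA and 6.99, 7.05 and 7 CPM in LMNB1. MT-TM, the methionine tRNA gene, had 9.3, 6.96 and 7.52 CPM against 5.7, 6.89 and 5.49 CPM (log2 fold change -0.39 ± 0.23, adjusted p = 0.859, edgeR). The nuclear-retained lncRNAs MALAT1 and NEAT1 had 69 tested intervals with a median of 0.05. MALAT1 had 10.2, 10.3 and 11.1 CPM in LMNA and 11.3, 10.7 and 11.2 CPM in LMNB1.

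Most of the lowest fold changes rested on 1 or 2 of the 3 LMNA libraries. Of 33893 tested intervals, 433 had a log2 fold change at or below -1 and 108 at or above 1. Of the 433, 161 did not overlap between groups, where 7.51% of all tested features were lower without overlap. In 378 of the 433, LMNA replicate 1 or 3 had more than 2 times the level of LMNA replicate 2, and in 238 replicate 2 lay within or below the LMNB1 range. In 301 of the 433, GFP replicate 3 had more than 2 times the level of both other GFP libraries. Both held in 294 of them. The shares of these library counts over all tested intervals are not given here. The 433 were picked by their low fold change, so a high LMNA library is partly built in. tRNA-Ile-TAT-1-1, described because it had the lowest tRNA fold change (-3.83), had 0.94, 0.787 and 28.9 CPM in LMNA, 0.646, 0.624 and 0.859 CPM in LMNB1 and 0.627, 0.375 and 55.4 CPM in GFP. MIR1246, also chosen after its values were seen, had 1.96, 0.124 and 3.28 CPM in LMNA and 0.199, 0.0734 and 0.139 CPM in LMNB1, with 4.47 CPM in GFP replicate 3. What sets these libraries apart was not tested.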

How the data were processed

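The authors deposited raw counts per annotated feature for 12 small RNA libraries, and, used here for the lamin loci only, for 12 accessibility (ATAC) libraries. The submitters' processing notes name the genome build GRCh38. The aligner, the counter, strand use and the treatment of multi-mapping reads are not given in the sources used here. All 12 small RNA libraries were fitted with a mean per group in edgeR 4.0.16 (R 4.3.3) with its default filter on low counts (filterByExpr), TMM factors, robust quasi-likelihood dispersions and a prior count of 2. LMNB1 was contrasted with LMNA, with Benjamini-Hochberg adjustment across the 33893 features tested. The script was tested on simulated data. Fits without GFP, with 6 libraries, with other scalings and filters, with DESeq2 1.42.0, with the replicate number as a block and without each library were alternatives.

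Features were named by a rule: those at the lamin loci, the calls, the lowest p without overlap and a mean of at least 10 counts in each class and direction, single polymerase III genes, and the most abundant members of each list. The members, lists and rule were chosen with earlier results of these data known. CPM uses TMM-scaled library sizes, and class levels add 0.05 CPM before the logarithm. Replicates differed by more than sampling noise.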

Additional observations from a re-analysis of the deposited data

How the results depend on the processing

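The 4 calls of the 12-library fit were the result under DESeq2 size factors, scaling outside polymerase III features, a mean of at least 10 counts, an adjusted p under 0.01 and a log2 fold change of 1 or more in size, which each gave 4 calls, and scaling by total counts gave 3, with lnc-TFAP2A-3 at an adjusted p of 0.0643. The count was 262 with the 9 lamin libraries without GFP, 103 with the 6 libraries compared, 146 with no count filter (16 higher, 130 lower), 10 with DESeq2 (5 higher, 5 lower) and 1 without lncRNA features. With the replicate number as a block it was 5 with 12 libraries and 54 with 6. Same-numbered LMNA and LMNB1 libraries did not deviate together (correlations of 0.01, -0.03 and 0.04). Whether the replicate numbers link libraries of the GFP or LMNB2 groups to these was not tested. Leaving out 1 library gave 4 to 16 calls: 16 without LMNA replicate 2 (4 higher, 12 lower), 7 without GFP replicate 3, and 4 without any other. Of the values of named features under the alternatives, 1648 kept direction and side of the threshold, 16 passed it where the 12-library fit did not, 1 no longer passed it and 0 reversed. The cause of these differences was not tested beyond the libraries left out. Class medians of C/D snoRNAs ranged from -0.37 to -0.19 and of H/ACA snoRNAs from -0.43 to -0.22, below 0 in all 24 settings, and those of tRNAs and microRNAs were above 0 in 2 and 4 settings, highest with total counts (0.07 and 0.09). A group of 3 libraries limits precision: an exact permutation test of a single value, 3 against 3, cannot go below p = 0.10.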

Other observations

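Outside the lamin and TFAP2A loci, a few lncRNA intervals were higher in LMNB1 in the 9-library fit; those named here were chosen after their values were seen. lnc-MAP2K4-3 (chr17:12221814-12395282) had 0.0747, 0.0345 and 0.0936 CPM in LMNA and 0.302, 0.373 and 0.209 CPM in LMNB1, a log2 fold change of 1.91 ± 0.28 (adjusted p = 0.000763, edgeR). lnc-ADGRL4-6 (chr1:78568670-78664103) had 0.205, 0.152 and 0.111 CPM against 0.356, 0.441 and 0.435 CPM (1.33 ± 0.24, adjusted p = 0.00511). In both the LMNB1 libraries were above every LMNA library, at levels under 1 CPM. GFP replicate 3 had 0.248 CPM of lnc-MAP2K4-3, within the LMNB1 range, and the other GFP libraries had 0.0601 and 0.0735 CPM. lnc-CH25H-2 (chr10:89291966-89342635) had 0.292, 0.269 and 0.222 CPM in LMNA and 0.423, 0.453 and 0.563 CPM in LMNB1 (0.85 ± 0.17, adjusted p = 0.0166).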
